A study of Rattus norvegicus with 4 samples.

Results

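The 10 genes described here, B2m, Tap1, Tap2, Tapbp, Psmb8, Psmb9, Psmb10, Psme1, Psme2 and Fcgrt, encode the light chain of MHC class I molecules, the proteins that make and load their peptides, and a class I-like receptor. They were taken by symbol through the RefSeq accession of each row of the array table, and all 10 had 1 row with a value on all 4 arrays, of 18350 rows measured and 6963 genes with a name. Colon tissue came from male Sprague Dawley rats, 2 in the control group without transplantation and 2 in the MSCT group, with 1 one-color NimbleGen array per rat. The RNA came from separate rats, so the spread between arrays of a group includes that between animals. Rats of the MSCT group received TNBS (2,4,6-trinitrobenzene sulfonic acid) into the colon to induce inflammatory bowel disease (IBD) and then mesenchymal stem cells labeled with green fluorescent protein through the tail vein. The sample descriptions call the control animals normal rats, whereas the paper and the design text compare the MSCT group with IBD rats, so the TNBS treatment of the control group is not settled. The age of the rats is not given in the sources used here, which also name more than 1 day after transplantation for the chips. TNBS colitis is chemically induced, and each array holds the RNA of colon tissue with its epithelium, muscle and immune cells together.

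MHC class I molecules show fragments of a cell's own proteins to CD8 T cells and natural killer cells. The proteasome cuts the proteins, the TAP transporter carries the fragments into the endoplasmic reticulum, and the loading complex places them on a heavy chain paired with β2-microglobulin. Under interferon gamma, the catalytic subunits of the proteasome are replaced by inducible ones, which gives the immunoproteasome, and epithelial cells as well as immune cells can take part in this response.

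Across the 4 arrays, none of the 10 genes had an unadjusted p under 0.05 by limma for the difference between the MSCT group and the control group. On the log2 scale the differences (MSCT minus control) lay between -0.17 for B2m and 0.23 for Psmb9, with 6 genes higher and 4 lower and a median of 0.03, against a median of -0.02 over all measured rows. With the arrays set to equal medians, Tap1 and Psmb8 also came out higher (0.03 and 0.02). The median difference was 0.95 for the MHC class II genes and 1.00 for the macrophage markers. Each difference of the 10 genes had a 95% interval within 1 either side of 0, that is within 2-fold, and every interval covered 0.

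Most promoters of these genes hold letters that match sequence elements through which interferons and inflammatory signals are known to act. Shown are 4 of the promoters, because each held 2 matches to the first 2 sets of letters described next. In the 250 bases before the start of each gene (RefSeq, assembly GRCr8, all 10 genes matched), the letters GAAA followed by any 2 bases and GAAA again, the paired half-sites of an interferon-stimulated response element, were searched on both strands. They were found in 7 of the 10 promoters (B2m, Tap1, Tap2, Tapbp, Psmb10, Psme2 and Fcgrt) and in 3.41% of all 33469 promoters of the same length. The letters GGGACTTTC, part of a NF-kappaB site, were found in B2m and Tap1 and in 0.272% of all promoters. A gamma-activated site, TTCNNNGAA, was found in Psmb8 and Fcgrt and in 7.67% of all promoters. Of the other letters searched, CCAAT was in B2m and Psmb8 (34.0% of all promoters), TATAAA in B2m (12.9%) and the cyclic AMP element core in none of the 10 (1.59%). These matches are letters in a window and not measured sites. Capitals mark the paired half-sites and GGGACTTTC on either strand, and each sequence runs 5′ to 3′ toward the gene.
B2m, chr3:129549080-129549329, plus strand: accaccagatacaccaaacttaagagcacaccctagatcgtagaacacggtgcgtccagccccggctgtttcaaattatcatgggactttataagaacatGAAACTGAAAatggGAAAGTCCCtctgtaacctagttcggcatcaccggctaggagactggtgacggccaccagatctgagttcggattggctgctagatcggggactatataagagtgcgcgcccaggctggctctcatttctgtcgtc
Tap1, chr20:4668544-4668793, minus strand: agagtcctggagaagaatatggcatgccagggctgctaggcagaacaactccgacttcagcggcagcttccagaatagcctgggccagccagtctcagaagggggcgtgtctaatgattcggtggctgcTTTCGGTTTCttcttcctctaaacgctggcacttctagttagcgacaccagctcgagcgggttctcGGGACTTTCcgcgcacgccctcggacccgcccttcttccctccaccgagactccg
Tapbp, chr20:4967878-4968127, minus strand: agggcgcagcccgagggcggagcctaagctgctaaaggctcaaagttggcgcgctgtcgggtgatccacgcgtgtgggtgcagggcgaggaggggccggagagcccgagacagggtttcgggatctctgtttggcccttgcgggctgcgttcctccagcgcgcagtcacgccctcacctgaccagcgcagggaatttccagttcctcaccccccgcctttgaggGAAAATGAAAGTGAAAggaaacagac
Psmb10, chr19:50743293-50743542, minus strand: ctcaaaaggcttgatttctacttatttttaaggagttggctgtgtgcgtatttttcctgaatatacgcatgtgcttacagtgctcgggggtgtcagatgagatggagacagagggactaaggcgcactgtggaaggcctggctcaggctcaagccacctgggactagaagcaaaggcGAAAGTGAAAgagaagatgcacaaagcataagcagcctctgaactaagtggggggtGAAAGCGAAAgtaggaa
Counted from the gene's start, the paired half-sites begin at -150 in B2m and -121 in Tap1, and the NF-kappaB letters at -136 and -55. In Tapbp 2 matches to the half-sites, at -26 and -20, overlap, and in Psmb10 they begin at -73 and -17. None of the half-sites, the NF-kappaB letters or the gamma-activated site was matched in the windows of Psmb9 and Psme1. The starts of Tap1 and Psmb9 lie 457 bases apart on opposite strands. The Tap1 matches lie between these starts, outside the window of Psmb9.

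B2m (NM_012512) encodes β2-microglobulin, the light chain of class I molecules. Its log2 intensity was 14.40 and 14.57 in control rats (replicate 1, then 2) and 14.16 and 14.47 in MSCT rats. The groups overlapped, with MSCT replicate 1 the lowest and control replicate 2 the highest. The mean was 14.48 ± 0.12 (SD, n = 2) in the control group and 14.32 ± 0.22 (SD, n = 2) in the MSCT group, a difference of -0.17 (standard error 0.22, 95% interval -0.74 to 0.41, limma adjusted p = 0.777 over all rows). Fcgrt (NM_033351) encodes the neonatal Fc receptor, a class I-like chain that also pairs with β2-microglobulin and carries IgG across cells. It lay at 13.36 and 13.68 in control rats and at 13.66 and 13.79 in MSCT rats. Control replicate 1 was apart from the other arrays, and control replicate 2 lay between the MSCT arrays, so the groups overlapped. The difference was 0.21 (standard error 0.21, 95% interval -0.36 to 0.78, limma adjusted p = 0.724), and it ran from 0.05 to 0.36 when single arrays were left out. That of B2m ran from -0.32 to -0.01.

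Tap1 and Tap2 encode the paired chains of the peptide transporter. Tap1 (NM_032055) lay at 11.29 and 11.45 in control rats and at 11.26 and 11.46 in MSCT rats. Each control value had an MSCT value within a few hundredths of it, and the group means were 11.37 ± 0.11 and 11.36 ± 0.14 (SD, n = 2 each). Tap2 (NM_032056) was the steadiest of the 10 genes, at 10.81 and 10.84 in control rats and 10.91 on both MSCT arrays. It was the only one of the 10 whose groups did not overlap, where 45.8% of all rows did not, and its difference of 0.08 was 1.06-fold (95% interval 0.758 to 1.48-fold, limma adjusted p = 0.876). Tapbp (NM_033098) encodes tapasin, which bridges the transporter and the empty class I molecule. It had the widest replicates of the 10, at 11.48 and 12.12 in control rats, with both MSCT arrays (11.71 and 11.90) between them. Its mean difference was 0.01 (standard error 0.29), but -0.31 without control replicate 1 and 0.33 without control replicate 2.

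**Figure D1:**
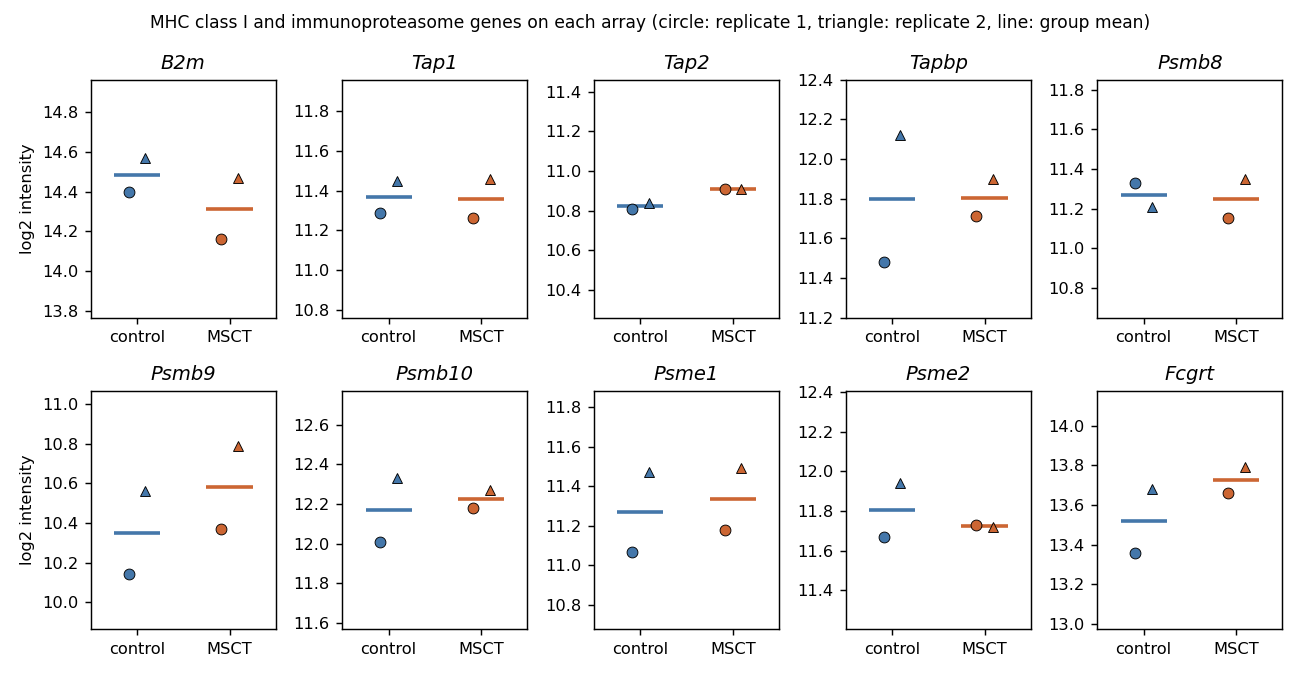
Log2 intensity (y axis, each panel spanning the same range of 1.2) of the 10 genes on the control and MSCT arrays, with circles for replicate 1, triangles for replicate 2 and a line at each group mean. The group means differ by at most 0.23, and the groups overlap in 9 of the 10 panels, Tap2 being the exception.

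Psmb8, Psmb9 and Psmb10 encode the inducible catalytic subunits that define the immunoproteasome. Psmb8 (NM_080767) lay at 11.33 and 11.21 in control rats and at 11.15 and 11.35 in MSCT rats, so the control arrays fell inside the range of the MSCT arrays. Psmb9 (NM_012708) lay at 10.14 and 10.56 against 10.37 and 10.79, and Psmb10 (NM_001025637) at 12.01 and 12.33 against 12.18 and 12.27. In Psmb9 each group spanned more than the distance between the groups. Its difference of 0.23 was the largest of the 10 (standard error 0.27, 95% interval -0.49 to 0.95, or 0.712 to 1.93-fold, limma adjusted p = 0.756), and it ranged from 0.02 to 0.44 when 1 array at a time was left out. Psmb8 differed by -0.02 and Psmb10 by 0.05.

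Psme1 and Psme2 encode the α and β subunits of PA28, the ring that caps the proteasome under interferon gamma. Psme1 (NM_017264) lay at 11.07 and 11.47 in control rats and at 11.18 and 11.49 in MSCT rats. Psme2 (NM_017257) lay at 11.67 and 11.94 against 11.73 and 11.72. The differences were 0.06 and -0.08, with standard errors of 0.25 and 0.20. Although both subunits are parts of 1 ring, only Psme1 kept a gap between the MSCT arrays (0.31, against -0.02 for Psme2).

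Of the 10 genes, 0 passed the screen of the study (fold change over 2 together with p under 0.05, unadjusted, here by limma), against 4.63% of all measured rows. Without the fold limit, 0 of 10 had an unadjusted p under 0.05, against 12.0% of rows, and their p-values by limma ran from 0.385 to 0.980 (adjusted 0.724 to 0.994). By the methods' t-test, a plain test with equal variances, 1 of 10 had an unadjusted p under 0.05, against 9.66% of rows. It was Tap2 (adjusted p = 0.496 by the methods' t-test over all rows), whose difference was 0.08, and 0 of 10 passed the screen by that test, against 2.11% of rows. No row of the table passed an adjusted p of 0.05 by limma, the smallest being 0.257. Among rows at least as bright as the dimmest of the 10, 43.0% had a larger difference, up or down, than the largest of the 10.

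**Figure D2:**
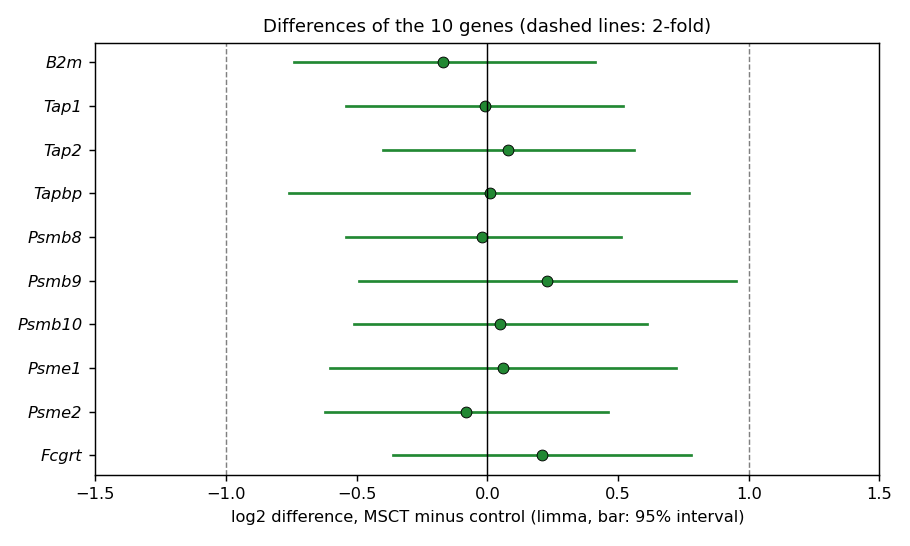
Log2 difference (x axis, MSCT minus control) of each of the 10 genes as a point, with its limma 95% interval as a bar and dashed lines at 2-fold. Every interval covers 0 and lies inside the dashed lines, from -0.76 at the lowest (Tapbp) to 0.95 at the highest (Psmb9).

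The 10 genes varied between arrays of the same group. With 1 array per rat, differences between animals and between arrays cannot be told apart. Replicate 2 was brighter than replicate 1 in 9 of the 10 genes in the control group and in 9 of the 10 in the MSCT group, with median gaps of 0.29 and 0.20. Over all rows these median gaps were 0.02 and 0.04. The exceptions were Psmb8 in the control group and Psme2 in the MSCT group, while Tap2 had a gap of 0.03 or less in both. In 8 of the 10 genes the difference between the groups was smaller than the gap between the control arrays. The mean centred profile of the 10 genes was -0.15 and 0.11 in control rats and -0.07 and 0.11 in MSCT rats. Same-numbered arrays come from separate rats, and the labels do not say what else they share. The cause of the shared gap was not tested. All 10 rows lay in the brighter 50% of the table and 8 in the brightest 25%, and their standard errors ran from 0.18 to 0.29. Their median within-group SD was 0.17, against 0.24 for all rows and 0.15 for rows as bright.

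Constitutive proteasome genes, which build the standard particle in all cells, lay slightly higher in the MSCT group, without passing the screen. Of 12 measured subunits of the 20S core, all 12 were higher (median 0.17), where 48.0% of all rows and 52.7% of rows as bright as the class I genes were, and 0 had an unadjusted p under 0.05. Among these, Psmb6 differed by 0.29, Psma4 and Psma5 by 0.32 each, and Psmb7 by 0.10. Of 13 measured subunits of the 19S regulatory particle, 12 were higher (median 0.23), and 2 had an unadjusted p under 0.05, both higher, against 4.80% of all rows: Psmd3 (0.58, limma adjusted p = 0.365) and Psmd12 (0.60, limma adjusted p = 0.402). Psmc4 differed by 0.40. None of the 25 passed the screen, and Psme3, a nuclear proteasome activator related to PA28, differed by -0.02.

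Since each inducible subunit takes the place of a constitutive one, their log2 ratio was followed on each array; its change between arrays can be read, but not its level, as both come from different probes. Psmb9 to Psmb6 was -1.13 and -0.74 in control rats and -1.17 and -0.82 in MSCT rats. Psmb10 to Psmb7 was -1.02 and -0.67 in control rats and -0.93 and -0.85 in MSCT rats. Both ratios overlapped between the groups and changed by -0.06 and -0.05 (exact permutation test, two-sided, p = 0.667 and 1.0). Psme1 and Psme2 to Psme3 changed by 0.09 and -0.06 (exact p = 0.667 and 0.333), and over these 4 ratios the adjusted exact p was 0.889 to 1.0. The smallest p that 2 arrays against 2 allow is 0.333. No row was matched to Psmb5, the counterpart of Psmb8, and its ratio was not analysed here.

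Of the genes that bring class I molecules into the endoplasmic reticulum or fold them there, all 6 measured were higher in the MSCT group. Their groups did not overlap (21.3% of all rows were higher without overlap), but none passed the screen. Hspa5, the main chaperone of the endoplasmic reticulum, lay at 12.73 and 12.48 in control rats and at 13.48 and 13.36 in MSCT rats. Its difference was 0.82 (unadjusted p under 0.05, limma adjusted p = 0.324). Sec61a1, the protein-conducting channel, differed by 0.52 and Calr, calreticulin of the loading complex, by 0.37. The proteins of this list serve most secreted proteins and not only class I molecules. Among 6 measured cytosolic peptidases that trim the products of the proteasome, Thop1 differed by 0.60, Tpp2 by 0.41 and Nrdc by -0.18, with 0 of 6 at an unadjusted p under 0.05.

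Genes through which interferon gamma acts on class I were measured in 15 of 21 cases, and none passed the screen (median 0.08). Ifng itself had a row that was blank on all 4 arrays. Irf1, a transcription factor that carries the signal to these promoters, was chosen after its values were seen. It lay at 12.81 and 13.07 in control rats and at 12.78 and 12.93 in MSCT rats, with a difference of -0.08. The groups overlapped, and replicate 2 was the brighter in each group. Among the 15 genes, replicate 2 was the brighter in 8 in the control group and in 8 in the MSCT group. At an unadjusted p under 0.05 were 2 of the 15, a share near the 12.0% of all rows, both higher: Nfya (0.78, limma adjusted p = 0.332) and Creb1 (0.51, limma adjusted p = 0.416), general factors that also bind the promoters of class I and class II genes. Irf2 differed by -0.30. Of the lymphocyte receptors that read class I, only Cd8a had values (7.87 and 7.33 against 7.01 and 8.20, difference 0.01), and the rows of Cd8b, Klrd1, Klrc1, Klrc2 and Klrk1 were blank.

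The heavy chains, which hold the peptide, had differences in both directions. Of 28 measured heavy chain and class I-like genes, 14 were higher and 14 lower in the MSCT group, with a median of -0.03 and a range from -1.38 to 2.01. In 20 of them the control and MSCT values did not overlap, 9 higher and 11 lower, against 21.3% and 24.5% of all rows. At an unadjusted p under 0.05 by limma were 5 higher and 3 lower, against 4.80% and 7.17% of all rows. Past the screen were 3 higher and 2 lower, against 2.12% and 2.51% of all rows. RT1-O1 lay at 6.44 and 6.98 in control rats and at 8.39 and 9.05 in MSCT rats, a difference of 2.01 (standard error 0.34, limma adjusted p = 0.260). RT1-N2 lay at 10.76 and 10.45 against 9.33 and 9.13, a difference of -1.38 (standard error 0.22, limma adjusted p = 0.260). Both passed the screen with any 1 array left out. RT1-O1 was dim in control rats, at percentiles 2.0 and 6.0 of the rows of each array, no measure of background is among the values used here, and the size of its difference is uncertain. It was not tested without the lower 25% of rows.

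The other 3 genes past the screen depended on single arrays. RT1-CE2 differed by 1.69 but had a limma p of 0.0545 without control replicate 2. RT1-CE13 differed by -1.34 and by -0.94 without control replicate 2. Azgp1, a secreted class I-like protein, differed by 1.16, with a limma p of 0.0722 without control replicate 1 and 0.0962 without MSCT replicate 2. By the methods' t-test, RT1-O1 and RT1-N2 passed the screen and these 3 did not. The classical class I genes RT1-A1 and RT1-A2 differed by 0.33 and -0.19, with limma p-values of 0.243 and 0.389; they were named after their values were seen. RT1 heavy chain genes are near-identical in long stretches and vary between rats, the probes of these rows are not given in the sources used here, and a signal shared between them cannot be told apart. Of the heavy chain rows, RT1-M1-2, RT1-M1-4, RT1-M2 and RT1-S2 were blank on all 4 arrays.

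**Figure D3:**
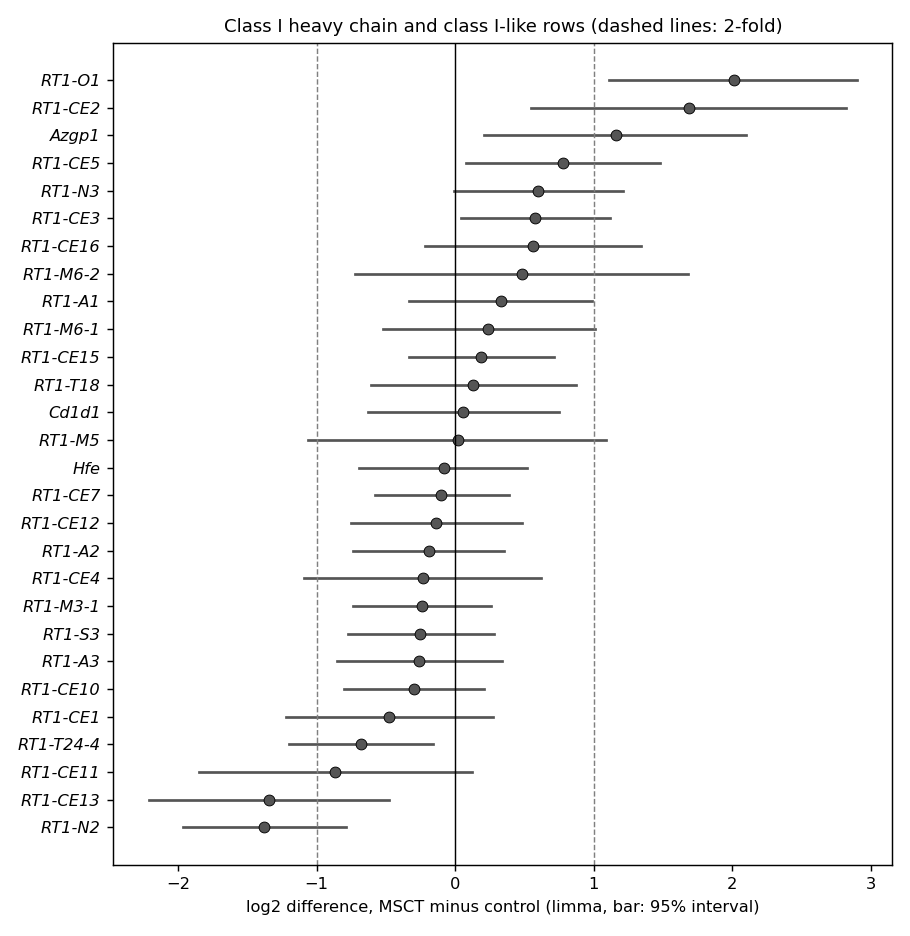
Log2 difference (x axis, MSCT minus control) of the 28 measured class I heavy chain and class I-like genes, ordered by size, with limma 95% intervals as bars and dashed lines at 2-fold. The points run from -1.38 (RT1-N2) to 2.01 (RT1-O1), with 14 on each side of 0.

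On chromosome 20, 4 of the 10 genes lie side by side within the class II region. In the RefSeq gene table the order of protein-coding genes is RT1-Ba, RT1-Bb, RT1-DOb, Tap2, Psmb8, Tap1, Psmb9, RT1-DMb and RT1-DMa, and the starts of Tap1 and Psmb9 lie 457 bases apart on opposite strands. From the first to the last of these genes the log2 differences were 1.63, 1.38, 1.04, 0.08, -0.02, -0.01, 0.23, 0.65 and 0.07. Thus the class I processing genes in the middle had values near 0, whereas RT1-Ba, RT1-Bb and RT1-DOb, which encode class II chains, passed the screen and RT1-DMb, which helps load class II, had a limma p of 0.0337. RT1-DOb did not pass it without control replicate 1 (0.78) or without MSCT replicate 2 (0.80).

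The difference between genes of this stretch was followed as a log2 ratio on each array, for pairs chosen with their values known. RT1-Ba to Tap2 was -1.70 and -1.85 in control rats and -0.47 and 0.01 in MSCT rats, a change of 1.55. RT1-Bb to Tap2 was -1.93 and -2.48 in control rats and -0.90 and -0.91 in MSCT rats, a change of 1.30. RT1-DMb to Psmb9 was 0.50 and -0.15 against 0.67 and 0.52, a change of 0.42. RT1-DOb to Tap2 changed by 0.96. At the far end RT1-DMa to Psmb9 did not follow, at 1.51 and 0.69 against 1.02 and 0.85, a change of -0.16 with overlapping groups (exact permutation p = 1.0). Away from this stretch, Cd74 (the invariant chain of class II) to B2m changed by 1.05, from -1.0 and -1.60 to -0.17 and -0.32. In 5 of these 6 ratios, all but RT1-DMa to Psmb9, the groups did not overlap, where 45.8% of all single rows did not. For RT1-DMb to Psmb9 the margin was narrow (0.50 against 0.52), and the ratios to Tap2 share its values. For these 5 the exact permutation test gave its smallest possible two-sided p of 0.333 (0.40 adjusted over the 6). Thus 2 arrays per group cannot pass 0.05 by it. The class II list was added with its values known. Of its 10 measured genes 7 had an unadjusted p under 0.05 by limma, all higher, against 4.80% of all rows. Of the 10, 5 passed the screen, against 2.12% of all rows in that direction. By the methods' t-test 3 passed it, against 2.11% in either direction. Beside RT1-Ba, RT1-Bb and RT1-DOb, those past it by limma were RT1-Db1 (1.92) and RT1-Da (1.01). RT1-Db1 had the largest difference of the list, and RT1-Da differed by 0.69 without control replicate 2. In the list 2 genes were lower, RT1-DOa (-0.37) and Ctss (-0.46).

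**Figure D4:**
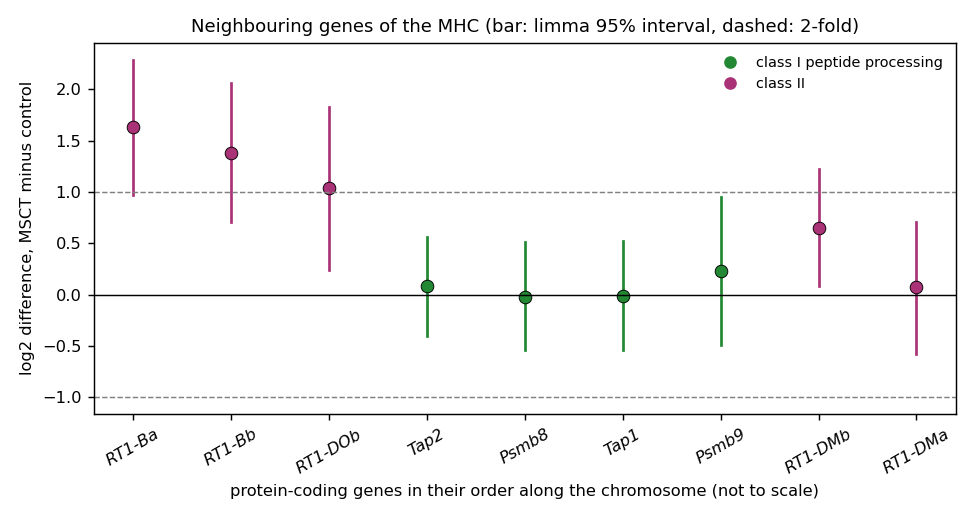
Log2 difference (y axis, MSCT minus control) of 9 neighbouring protein-coding genes of the MHC in their order along the chromosome (x axis, not to scale), with limma 95% intervals as bars and dashed lines at 2-fold. The 4 class I processing genes lie between -0.02 and 0.23, and the 3 class II genes at the left between 1.04 and 1.63.

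Most markers of macrophages and other leukocytes, which carry class I molecules, were higher in the MSCT group. In bulk tissue, more cells of a type and more RNA per cell cannot be told apart. Of 5 measured macrophage markers 4 were higher with an unadjusted p under 0.05 by limma, against 4.80% of all rows. Cd14 differed by -0.04. By the methods' t-test 2 of the 5, Cd68 and Csf1r, passed the screen, against 2.11% of all rows in either direction. By limma 3 of the 5 passed it, against 2.12% of all rows. They were Aif1 (difference 1.39), Cd68 (10.00 and 10.16 against 11.22 and 11.52, difference 1.29) and Csf1r (difference 1.00, just at the fold limit). Without control replicate 2, or without MSCT replicate 2, only Cd68 passed. Of 8 measured leukocyte markers 7 were higher, though Cd48 (0.06) and Ptpn6 (0.07) by little. By the methods' t-test 1 of the 8, Laptm5, passed the screen, against 2.11% of all rows in either direction. By limma 3 passed it, against 2.12% of all rows. These 3 were not tested without the lower 50% of rows, where 0 of the list passed and its median was 0.07. Laptm5 had the largest difference (1.33), from 1.21 to 1.45 with 1 array left out. The others past it were Cd53 (1.07, lost without control replicate 2 or MSCT replicate 1) and Lcp1 (1.02, lost without either control array or MSCT replicate 2). Cd52 was lower (-0.76, unadjusted p under 0.05 by limma). The summed linear intensity of the leukocyte markers was 7539 to 7882 in the control group and 9654 to 11140 in the MSCT group, and that of the macrophage markers 12207 to 13631 and 14710 to 17475. The summed intensity of the 10 class I genes was 52576 to 62270 and 52955 to 61033. Of the T cell markers Cd3d, Cd2, Cd5 and Cd247 were blank and Cd3g differed by 0.13. The only measured marker of B and plasma cells was Mzb1, and Cd79b was blank. Mzb1 lay at 6.79 and 6.64 in control rats and at 8.02 and 7.93 in MSCT rats. Its difference of 1.26 passed the screen (limma adjusted p = 0.260), but its row was dim, at percentile 11.6 of all rows. How far immune cells contributed to the signal of the 10 genes was not tested.

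Markers of colon tissue were bright. The 8 measured epithelial markers (median difference 0.18) and the 5 of smooth muscle (median 0.02) include 7 and 5 rows in the brightest 25% of the table, and none of them passed the screen.

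**Figure D5:**
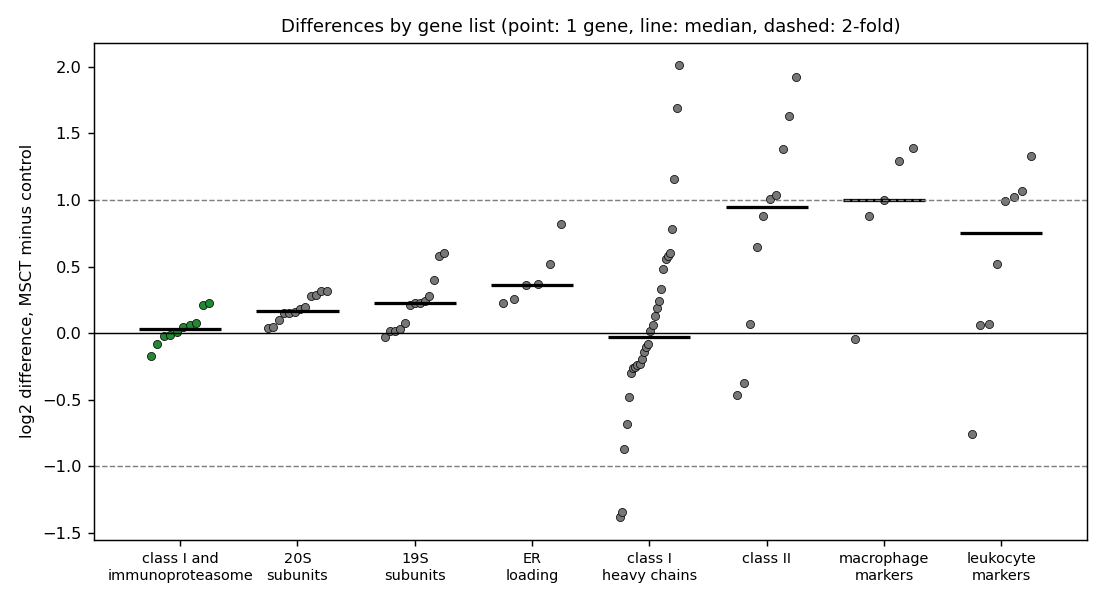
Log2 difference (y axis, MSCT minus control) of each measured gene by list (x axis), 1 point per gene, with a line at each median and dashed lines at 2-fold. The 10 class I and immunoproteasome genes lie between -0.17 and 0.23, the heavy chains run from -1.38 to 2.01, and the medians of the class II and macrophage lists are 0.95 and 1.00.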

How the data were processed

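RNA of colon tissue from 2 control and 2 MSCT rats was made into Cy3-labeled cDNA for one-color NimbleGen arrays. After GenePix scanning and NimbleScan analysis, the authors deposited 1 linear intensity per RefSeq transcript and array. The submitters' processing notes also name RMA, without its role, and the rule for blank rows is not given in the sources used here. Of 26420 rows, 18350 hold values on all 4 arrays, with array medians from 847.6 to 892.7; 7062 were named through RefSeq accessions (assembly GRCr8, version numbers removed). Arrays have no read depth; their number (2 per group) sets the precision.

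Intensities were taken as log2 values with no pseudocount, scaling or filter. limma 3.58.1 in R 4.3.3 (lmFit, eBayes) compared MSCT with control over all rows, with Benjamini-Hochberg adjustment over all of them; it was tested on simulated data. Where a gene had several rows, the one with the highest mean was used. Named are the 10 genes, list members past the screen or otherwise up to 3 with the smallest p, and the genes nearest in profile; others are said to be chosen after their values were seen. The genes, lists and tests were chosen with earlier results of these data known, and the class II and interferon-induced lists were added later. As alternatives, the methods' t-test, equal array medians, quantile normalization, filters on dim rows, an intensity-dependent variance, array weights, the replicate block, leaving out each array, the lowest-mean row, a fold limit of 1.5 and linear means were tried. Python 3.11.15, pandas 2.3.3 and matplotlib 3.10.9 were used for names and figures.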

Additional observations from a re-analysis of the deposited data

How the results depend on the processing

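Under each alternative, 0 of the 10 genes passed the screen. The count with an unadjusted p under 0.05 was 0 in each, except 1 (Tap2) by the methods' t-test. Tap1 and Psmb8 changed sign with equal array medians (0.03 and 0.02). Leaving out 1 array at a time, the differences ran from -0.11 to 0.09 for Tap1, -0.31 to 0.33 for Tapbp, -0.12 to 0.08 for Psmb8, -0.11 to 0.21 for Psmb10, -0.14 to 0.26 for Psme1 and -0.21 to 0.05 for Psme2, so these 6 have no settled sign. B2m (-0.32 to -0.01), Tap2 (0.07 to 0.10), Psmb9 (0.02 to 0.44) and Fcgrt (0.05 to 0.36) did not change sign, B2m and Psmb9 by little. The median of the 10 then ran from -0.10 to 0.15. The ratio of Psmb9 to Psmb6 changed by -0.25 to 0.13 and that of Psmb10 to Psmb7 by -0.23 to 0.12. Of the 87 other measured pathway genes 6 passed the screen (5 to 7 with an array left out), 3 by the methods' t-test, 4 without the lower 25% of rows, where RT1-O1 and Fcgr3a are not tested, 3 without the lower 50%, and 11 with a fold limit of 1.5. With the replicate number as a block, 0 of the 10 genes had an unadjusted p under 0.05 and 6 pathway genes passed. Same-numbered arrays deviated together with r = 0.234 across rows. They come from separate rats, the labels do not say what else they share, and the cause was not tested. With an intensity-dependent variance 387 rows, and without the lower 50% of rows 247, passed an adjusted p of 0.05, and none of the 10 was among them (smallest adjusted p 0.565 and 0.579, limma).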

Other observations

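Beside Fcgrt, 5 other receptors for antibodies were measured. Fcgr3a, an activating IgG receptor, lay at 6.97 and 7.05 in control rats and at 8.18 and 8.04 in MSCT rats, a difference of 1.10 (standard error 0.19, limma adjusted p = 0.260), and passed the screen with any 1 array left out. It was dim in control rats, at percentiles 7.3 and 6.9 of the rows of each array, and was not tested without the lower 25% of rows. Fcgr2b, the inhibitory receptor, differed by 0.77 and Fcgr2a by 0.43, with limma p-values of 0.0941 and 0.235. Pigr, which carries IgA and IgM across the epithelium as Fcgrt carries IgG, lay at 14.84 and 14.99 against 15.02 and 14.90, a difference of 0.05. Trim21, a cytosolic antibody receptor, had a limma p of 0.995. Of the 5 measured receptors 1, Fcgr3a, passed the screen, against 2.12% of all rows in that direction.

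Interferon-induced genes outside class I were mixed. Of 16 measured, 8 were higher and 8 lower (median -0.03). The screen was passed by 1 of the 16, against 4.63% of all rows. It was Mx1, an antiviral GTPase, at 7.66 and 7.71 in control rats and 8.72 and 9.07 in MSCT rats (difference 1.21, limma adjusted p = 0.265). An unadjusted p under 0.05 by limma was reached by 3 of the 16, Mx1 and the next 2 genes, against 12.0% of all rows. Cxcl11, a chemokine of the interferon gamma response, differed by 1.00, just under the fold limit, and Stat2 by -0.59, with limma p-values of 0.0266 and 0.0311. The list was added with its values known, and these genes were named after their values were seen.

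The named genes nearest to the mean centred profile of the 10 genes over the 4 arrays were Pomgnt1 (Euclidean distance 0.00712 on the log2 scale), Tpm2 (0.0274), Ring1 (0.0323), Rnf103 and Rpl18 (0.0378 each). The 10 genes themselves lay between 0.0788 (Psmb10) and 0.281 (Psmb9) from it. With 4 arrays many genes can lie this close, and no shared control is read from it.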
